A study of Mus musculus with 13 samples.

Results

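The EGF receptor family and the HGF-MET pair were examined as a group of 10 genes in liver RNA: the receptors *Egfr*, *Erbb2*, *Erbb3* and *Met*, and the growth factors *Areg*, *Ereg*, *Hbegf*, *Tgfa*, *Btc* and *Hgf*. The genes were chosen by name from these pathways, and all 10 were found among the 53465 genes of the count table through their Ensembl identifiers. WT mice (n = 6) were compared with Nod2-/- mice (n = 7), each mouse giving 1 library. All mice were BALB/c males that had received the carcinogen dimethylbenz[a]anthracene (DMBA) as pups and were then kept on a high fat diet (HFD). The labels give an age of 30 weeks and the disease state cancer for all 13. The study gives a time on the diet that is longer than this age, and the sources do not explain the difference. WT and Nod2-/- mice were bred as separate lines in the same room rather than as littermates, and they differed in genotype for the innate receptor *Nod2*. The labels do not say which livers carried tumors, nor whether tumor was part of the sampled tissue, and no untreated liver was analysed here.

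EGFR and its relatives are cell surface tyrosine kinases that pair with each other when a ligand binds. EGFR binds TGF-alpha, amphiregulin, epiregulin, HB-EGF and betacellulin. ERBB2 has no ligand of its own and serves as a partner, and ERBB3 binds neuregulins and signals through its partners because its own kinase is weak. MET is the receptor of hepatocyte growth factor (HGF), which in liver comes mainly from stellate and other non-parenchymal cells and acts on hepatocytes. Both systems drive hepatocyte growth during liver regeneration, and both feed the RAS-ERK and STAT3 pathways.

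Each library held between 13824780 and 20579984 reads counted on genes, and 13545 genes passed edgeR's expression filter. *Nod2* itself had 0 to 4 counts per mouse in WT and 1 to 6 in Nod2-/- mice, so it gave no check of the genotype labels. Hepatocyte markers were abundant in every library: a list of 10, among them *Alb*, *Apoa1* and *Hnf4a*, summed to between 88547 and 173606 CPM, that is counts scaled by library size. WT replicate 3 stood apart from the other WT mice, also in the values of *Tgfa*, *Btc* and *Hbegf* themselves. For these genes, and for any other gene in which it was the highest WT mouse, results without it are therefore no independent test. Nod2-/- replicate 7 had 994 CPM of 10 neutrophil markers against 5.93 to 41.1 CPM in the other Nod2-/- mice. Results are therefore also given without these mice where that changes them.

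*Egfr*, *Erbb3* and *Met* were expressed above every ligand in all 13 mice, whereas *Erbb2* was not. Levels of different genes were compared as CPM per kb of exon, the length being the union of the annotated exons. *Egfr* had the highest mean over the 13 mice, 57.7 CPM per kb (range 27.3 to 90.0). *Erbb3* followed with 25.4 CPM per kb (range 21.1 to 30.6) and *Met* with 13.9 CPM per kb (range 10.6 to 16.9). The ranges of *Egfr* and *Erbb3* overlapped, although *Egfr* was above *Erbb3* in 13 of 13 mice, whereas those of *Erbb3* and *Met* did not overlap. *Tgfa* was the most abundant ligand, at 4.14 CPM per kb (range 2.98 to 6.62), below every value of *Met* and above every value of *Hgf*.

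*Hgf* and *Btc* had nearly the same mean level, 0.816 and 0.796 CPM per kb, and *Hgf* was the higher of the pair in 8 of 13 mice. *Hbegf* (0.259 CPM per kb) and *Erbb2* (0.173 CPM per kb) could not be ordered either, with *Hbegf* higher in 6 of 13 mice. *Areg* and *Ereg* were lowest, at 0.0684 and 0.0479 CPM per kb, and *Areg* was higher in 7 of 13 mice. Among all genes tested, the mean level of *Egfr* lay at percentile 93.9, that of *Erbb3* at 88.2 and that of *Met* at 80.9, against 3.16 for *Erbb2*. ERBB2, the ligandless partner, was therefore the only receptor of the group with a level among the ligands.

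**Figure D1:**
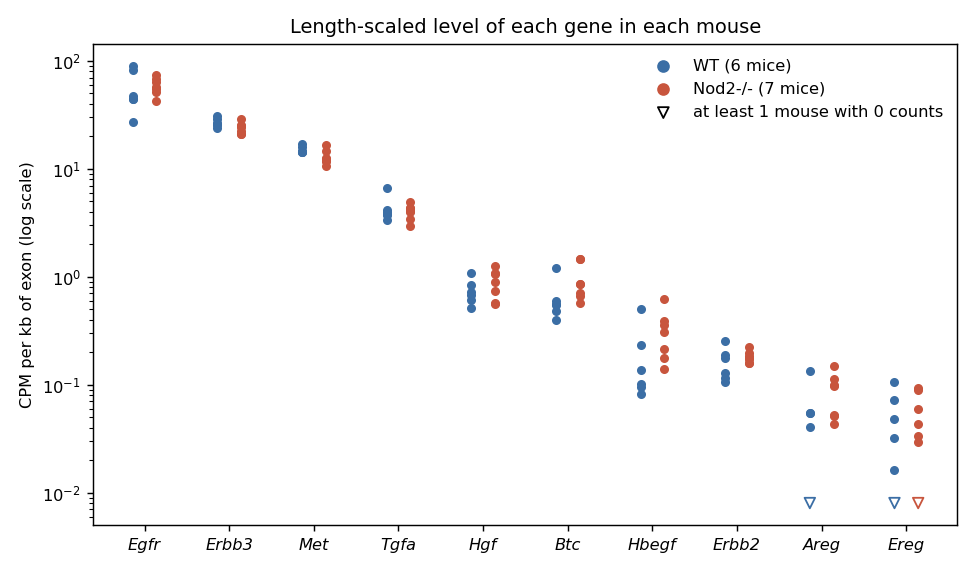
Level of each gene in each mouse in CPM per kb of exon, on a log axis, for 6 WT (blue) and 7 Nod2-/- (red) mice, with genes ordered by their mean and open triangles where at least 1 mouse of the genotype had 0 counts. *Egfr*, *Erbb3* and *Met* sit above 10 CPM per kb in every mouse, *Tgfa* between 2.98 and 6.62, and the other genes below 1.5 in every mouse.

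None of the 10 genes differed between the genotypes past the threshold. With edgeR's quasi-likelihood model, and p values adjusted by Benjamini and Hochberg over all 13545 genes, 0 of the 8 genes that passed the expression filter were past 5% FDR, where 1.16% of all tested genes were, 0.650% higher and 0.509% lower in Nod2-/- mice. DESeq2 and limma's voomWithQualityWeights also placed 0 of them past 5% FDR, where DESeq2 placed 8.52% of the genes it adjusted, 4.43% higher and 4.09% lower. At an unadjusted p under 0.05, edgeR gave 1 gene, *Met*, among the 8, against 23.1% of all tested genes (12.9% higher, 10.2% lower). The median log2 fold change of the 8 genes was 0.11, against 0.02 over all genes tested, with 5 higher and 3 lower in Nod2-/- mice. In none of the 10 genes were the 2 genotypes free of overlap, a separation seen in 1.44% of the tested genes. *Areg* and *Ereg* were below the filter and were compared by exact permutation tests. In bulk liver RNA, fewer cells of a type and less RNA per cell cannot be told apart.

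**Figure D2:**
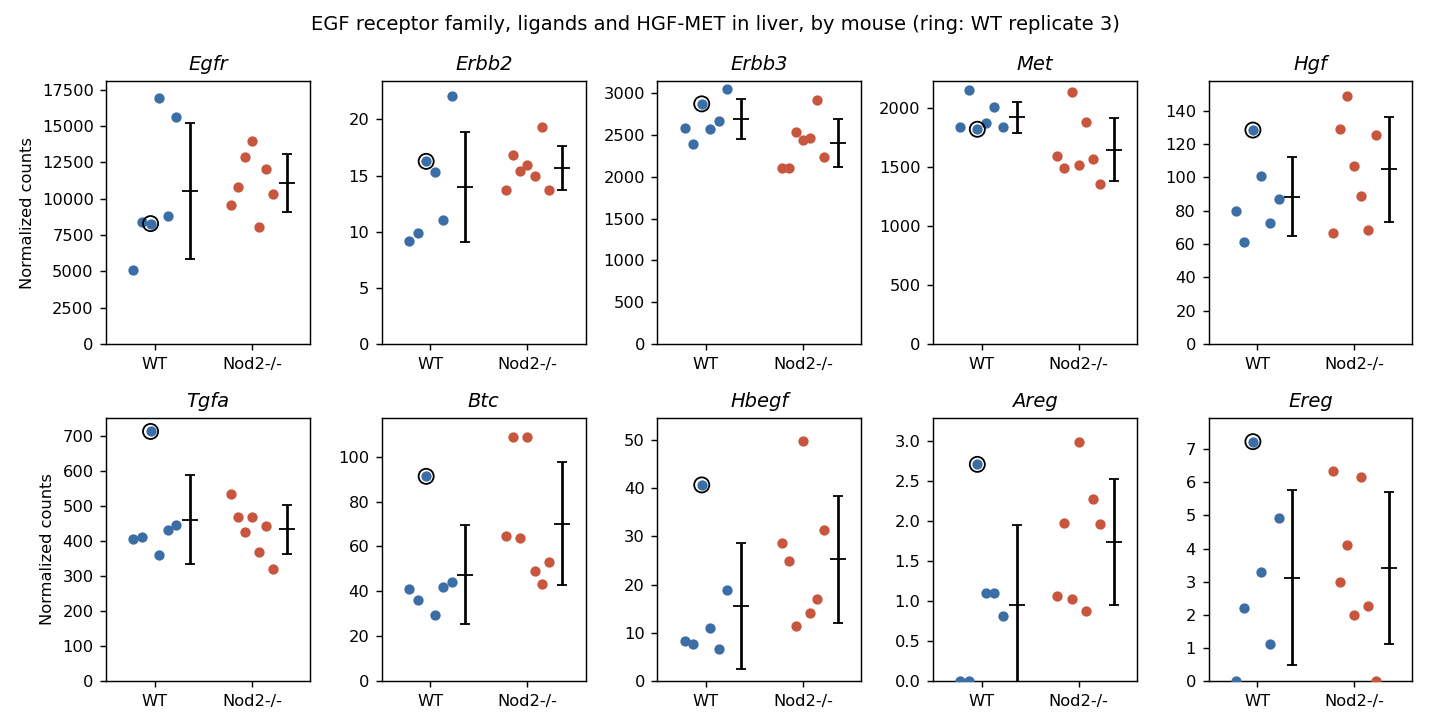
Normalized counts of the 10 genes, 1 panel per gene with its own axis from 0; each point is 1 mouse (blue WT, n = 6; red Nod2-/-, n = 7), the bar gives the mean and SD, and the ring marks WT replicate 3. The genotypes overlap in every panel, and the ringed mouse is the highest WT mouse for *Hgf*, *Tgfa*, *Btc*, *Hbegf*, *Ereg* and *Areg*, the last on at most 3 counts.

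Among the receptors, *Egfr* (ENSMUSG00000020122.16, GRCm38 chromosome 11, 16752203 to 16918158) varied most from mouse to mouse. Its normalized counts, put on the scale of an average library, were 5121 at the lowest, 8624 at the median and 16905 at the highest in WT mice, and 8037, 10797 and 13946 in Nod2-/- mice. The WT mice spanned a 3.30-fold range and enclosed all Nod2-/- mice, which spanned a 1.74-fold range. WT replicates 4 and 6 were the high mice and WT replicate 1 the low one. The group means were 10529 ± 4650 (SD, n = 6) and 11082 ± 2014 (SD, n = 7), a log2 fold change of 0.07 (standard error, SE, 0.24, 95% interval -0.44 to 0.59, edgeR adjusted p = 0.878). A list of 10 lung epithelium markers had its highest sums in WT replicate 4 (205 CPM, *Egfr* 16905) and WT replicate 2 (115 CPM, *Egfr* 8404), against 17.3 CPM in WT replicate 6 (*Egfr* 15612). The sums were at most 34.2 CPM in Nod2-/- mice. Of the 6 tested markers, 5 were lower past 5% FDR by DESeq2, where 4.09% of the genes it adjusted were. By edgeR 0 were, where 0.509% of all tested genes were lower. The part of these markers in the *Egfr* values was not tested.

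*Erbb3* (ENSMUSG00000018166.8, chromosome 10, 128567523 to 128589652), the neuregulin receptor, was steady. Its normalized counts were 2391, 2625 and 3048 at the lowest, median and highest in WT mice, and 2102, 2435 and 2912 in Nod2-/- mice. Of the Nod2-/- mice, 3 lay below every WT mouse and the remaining ones within the WT range. The log2 fold change was -0.16 (SE 0.09, 95% interval -0.36 to 0.03, edgeR adjusted p = 0.301). *Erbb2* (ENSMUSG00000062312.5, chromosome 11, 98412470 to 98437716) had 9 to 27 counts per mouse. Its normalized counts were 9.23, 13.2 and 22.1 in WT mice and 13.7, 15.4 and 19.3 in Nod2-/- mice, all of the latter within the WT range. Its log2 fold change was 0.15 (SE 0.23, 95% interval -0.33 to 0.63, edgeR adjusted p = 0.714). An exon of *Erbb2* overlaps *Mien1* on the opposite strand, which had 588 to 1141 counts, so without a stated strand setting the few *Erbb2* counts are uncertain.

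*Met* (ENSMUSG00000009376.15, chromosome 6, 17463800 to 17573980), the HGF receptor, had the smallest adjusted p of the 8 genes by edgeR and DESeq2 with all mice, though not without WT replicate 3 or by voomWithQualityWeights, where *Btc* had a smaller one. Its normalized counts were 1819, 1854 and 2148 at the lowest, median and highest in WT mice, and 1352, 1565 and 2131 in Nod2-/- mice. Of the 7 Nod2-/- mice, 5 lay below every WT mouse, and replicates 3 and 5 lay within the WT range. At least 5 such mice were found in 5.65% of all tested genes. The means were 1920 ± 131 (SD, n = 6) and 1647 ± 266 (SD, n = 7), a log2 fold change of -0.22 (SE 0.10, 95% interval -0.44 to -0.004), and this did not pass the threshold (unadjusted p = 0.0465, edgeR adjusted p = 0.210). The two-sided exact permutation test of the normalized counts gave p = 0.0530. Unadjusted p values under 0.05 with lower expression in Nod2-/- mice were found in 10.2% of all tested genes. Without Nod2-/- replicate 3, the highest Nod2-/- mouse for *Met*, the log2 fold change was -0.29 (edgeR adjusted p = 0.0746). Without Nod2-/- replicate 7, the mouse rich in neutrophil transcripts and the lowest for *Met*, it was -0.18 (edgeR adjusted p = 0.358).

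*Hgf* (ENSMUSG00000028864.7, chromosome 5, 16553495 to 16620152), the ligand of MET, had 61.4, 83.4 and 128 normalized counts at the lowest, median and highest in WT mice, and 66.6, 107 and 149 in Nod2-/- mice. Nod2-/- replicate 2 (129) lay just above the highest WT mouse and replicate 3 (149) further above it, and the groups overlapped. The log2 fold change was 0.24 (SE 0.22, 95% interval -0.22 to 0.71, edgeR adjusted p = 0.516). The markers of stellate cells and fibroblasts, 11 genes, summed to 344 to 555 CPM in WT mice against 356 to 469 CPM in Nod2-/- mice, with no marker at 0 in all mice. Of the 11, 4 were higher and 7 lower in Nod2-/- mice. By edgeR 1 was higher past 5% FDR, where 0.650% of all tested genes were, and 0 were lower. WT replicate 3 was the highest WT mouse for both *Hgf* and these markers, whose part in the *Hgf* values was not tested.

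Of the ligands of EGFR, *Tgfa* (ENSMUSG00000029999.14, chromosome 6, 86195223 to 86275719) exceeded all others in every mouse. It had 359, 421 and 712 normalized counts at the lowest, median and highest in WT mice, and 320, 441 and 534 in Nod2-/- mice. The highest mouse was WT replicate 3, and the other WT mice had at most 445. The log2 fold change was -0.09 (SE 0.15, 95% interval -0.42 to 0.24, edgeR adjusted p = 0.754), and without WT replicate 3 it changed sign to 0.06 (edgeR adjusted p = 0.760).

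*Btc* (ENSMUSG00000082361.6, chromosome 5, 91357261 to 91402994), betacellulin, had 29.6, 41.5 and 91.3 normalized counts in WT mice and 43.2, 63.7 and 109 in Nod2-/- mice. The 91.3 belonged to WT replicate 3, the other WT mice reached 44.2 at most, and 6 of the 7 Nod2-/- mice lay above that value. The log2 fold change was 0.56 (SE 0.29, 95% interval -0.07 to 1.19, edgeR adjusted p = 0.264) with all mice. Without WT replicate 3 it was 0.85 (SE 0.26, adjusted p = 0.0551), still short of the threshold that 8.49% of tested genes then passed. Without Nod2-/- replicate 2 or 4, the mice highest in *Btc*, it was 0.42 each (edgeR adjusted p = 0.376 and 0.459). *Hbegf* (ENSMUSG00000024486.5, chromosome 18, 36504927 to 36515805), heparin-binding EGF-like growth factor, had 6 to 50 counts per mouse. Its normalized counts were 6.63, 9.58 and 40.7 in WT mice and 11.3, 24.8 and 49.9 in Nod2-/- mice, and again WT replicate 3 was the highest WT mouse. Its log2 fold change was 0.68 (SE 0.45, 95% interval -0.29 to 1.64, edgeR adjusted p = 0.378) and, without WT replicate 3, 1.23 (SE 0.40, adjusted p = 0.0683). Without Nod2-/- replicate 4, the highest *Hbegf* mouse, it was 0.42 (edgeR adjusted p = 0.639).

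*Areg* and *Ereg*, amphiregulin and epiregulin, lie beside *Btc* in a cluster of EGF family genes on chromosome 5. *Ereg* (ENSMUSG00000029377.5) spans 91074622 to 91093646 and *Areg* (ENSMUSG00000029378.5) 91139599 to 91148432. *Areg* had at most 3 counts in any mouse, which is the floor used here for detection, and it was therefore not detectable in either group at this depth. *Ereg* had 0 to 8 counts per mouse, with 3.12 ± 2.64 normalized counts (SD, n = 6) in WT and 3.41 ± 2.30 (SD, n = 7) in Nod2-/- mice, and the two-sided exact permutation test gave p = 0.843. The neighbours thus differed widely in level, since *Btc* alone of the 3 passed the expression filter.

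All 5 ligands above the detection floor (*Areg* was not) had their highest WT value in WT replicate 3, and none of the 4 receptors did. For *Ereg*, close to the floor, this rested on 8 counts against 6 in WT replicate 6. In 28.0% of all tested genes WT replicate 3 was the highest WT mouse, and in 4.90% it stood apart at the top by the Dixon ratio. Against the mean of the other 5 WT mice, this mouse had 3.89 times the *Hbegf*, 2.36 times the *Btc*, 1.74 times the *Tgfa* and 1.6 times the *Hgf*, against 1.20 times the *Erbb2*, 1.08 times the *Erbb3*, 0.938 times the *Met* and 0.755 times the *Egfr*. In Nod2-/- mice the highest ligand values were spread over 4 mice: replicate 4 for *Hbegf*, replicate 1 for *Tgfa* and *Ereg*, replicate 2 for *Btc* and replicate 3 for *Hgf*.

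**Figure D3:**
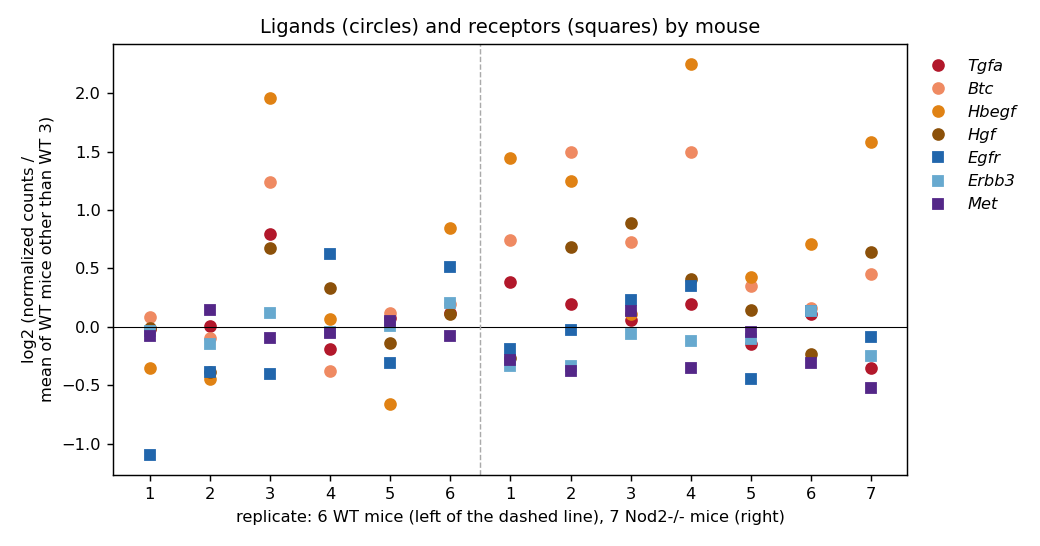
Ligands (circles) and receptors (squares) in each of the 13 mice as log2 of the normalized count over the mean of the WT mice other than replicate 3; *Erbb2*, *Areg* and *Ereg*, with at most 27 counts, are left out. In WT replicate 3 the 4 ligands lie above all 3 receptors, as *Hbegf* and *Btc* also do in Nod2-/- replicates 1, 2, 4, 5, 6 and 7.

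Markers of other cell types moved with WT replicate 3. Summed over each list, it was above the other 5 WT mice in 5 of 9 marker lists. Its cholangiocyte and progenitor markers, 10 genes among them *Krt19*, *Epcam* and *Sox9*, summed to 262 CPM against 64.2 to 155 CPM in the other WT mice and 116 to 411 CPM in Nod2-/- mice. Single markers were split between the genotypes: of the 8 tested, 4 were higher and 4 lower in Nod2-/- mice. By edgeR 1 was past 5% FDR in each direction, where 0.650% of all tested genes were higher and 0.509% lower. Markers of dividing cells, 10 genes among them *Mki67* and *Top2a*, summed to 18.1 CPM against 4.50 to 9.19 CPM in the other WT mice and 11.2 to 35.5 CPM in Nod2-/- mice. Its 11 stellate cell and fibroblast markers summed to 555 CPM against 344 to 421 CPM, its 8 sinusoidal endothelial markers to 281 CPM against 205 to 234 CPM, and its 8 macrophage and Kupffer cell markers to 213 CPM against 115 to 204 CPM in the other WT mice. Its neutrophil, T and NK cell, lung epithelium and hepatocyte sums were within the range of the other WT mice. The part of these cells in the ligand values was not tested.

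The promoters of *Tgfa* and *Btc*, the ligands with the highest Dixon ratios for WT replicate 3 (*Hbegf* had the largest ratio to the other WT mice), are printed from RefSeq (GRCm38.p6), 250 bases before to 50 after the start. They cover chr6:86194972-86195271 on the plus strand and chr5:91402945-91403244 on the minus strand, 5′ to 3′, and capitals mark the GC box letters GGGCGG or CCGCCC.
Tgfa: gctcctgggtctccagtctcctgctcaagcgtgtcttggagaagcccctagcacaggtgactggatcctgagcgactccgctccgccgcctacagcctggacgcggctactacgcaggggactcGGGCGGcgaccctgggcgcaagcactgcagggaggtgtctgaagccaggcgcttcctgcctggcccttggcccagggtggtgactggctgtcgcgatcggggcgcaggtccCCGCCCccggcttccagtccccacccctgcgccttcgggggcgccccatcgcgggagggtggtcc
Btc: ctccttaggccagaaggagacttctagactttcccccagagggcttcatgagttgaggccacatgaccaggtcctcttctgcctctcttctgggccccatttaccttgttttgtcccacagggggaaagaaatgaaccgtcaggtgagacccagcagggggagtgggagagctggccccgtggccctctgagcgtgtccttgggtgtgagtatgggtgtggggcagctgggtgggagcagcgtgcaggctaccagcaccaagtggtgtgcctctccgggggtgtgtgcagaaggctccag
*Tgfa* held 2 GC boxes in a window with 70.7% G and C, and *Btc* held 0 in a window with 60.3%, where the median of all 32851 promoters in the table was 52.7%. GC boxes were found in 35.7% of all promoters of the same length. The letters TATAAA (13.6% of promoters), the AP-1 letters TGANTCA (7.81%) and the E-box CACGTG (7.15%), searched on both strands, were in neither window.

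Across the 13 mice, 28 pairs of the 8 tested genes were compared on log2 CPM, with permutation tests and Benjamini-Hochberg adjustment over the pairs. By Pearson's r, 3 pairs were past 5%. *Hbegf* and *Btc* rose and fell together (r = 0.77, permutation p = 0.00243, adjusted p = 0.0468, Spearman's rho = 0.81, permutation p = 0.00138, adjusted p = 0.0386). Without the mice farthest from the median of *Hbegf*, WT replicate 5 and Nod2-/- replicate 4, r was 0.69. With the genotype means removed it was also 0.69, and it was 0.81 within WT and 0.57 within Nod2-/- mice. *Hbegf* and *Met* moved in opposite directions (r = -0.74, permutation p = 0.00501, adjusted p = 0.0468, rho = -0.77, permutation p = 0.00290, adjusted p = 0.0406). The r was -0.68 without the same 2 mice, -0.64 with the genotype means removed, -0.61 within WT and -0.79 within Nod2-/- mice. Without WT replicate 3, r was 0.73 for *Hbegf* with *Btc* and -0.84 for *Hbegf* with *Met*. *Hbegf* had at most 50 counts, which limits both relations.

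*Egfr* and *Erbb2* also rose and fell together by Pearson's r (r = 0.73, permutation p = 0.00446, adjusted p = 0.0468), but not past the threshold by rank (rho = 0.60, permutation p = 0.0331, adjusted p = 0.197). Without WT replicates 1 and 4, the mice farthest from the median of *Egfr*, r was 0.68, and it was 0.77 within WT and 0.45 within Nod2-/- mice. *Erbb2* had at most 27 counts and overlaps *Mien1* on the opposite strand, which limits this relation. *Hgf* and *Met*, the ligand and its receptor, were not among the pairs past 5%. The promoters of the *Egfr* and *Erbb2* pair, both on chromosome 11, are printed from the same RefSeq table. They cover chr11:16751953-16752252 and chr11:98412234-98412533, both on the plus strand, with GC boxes in capitals.
Egfr: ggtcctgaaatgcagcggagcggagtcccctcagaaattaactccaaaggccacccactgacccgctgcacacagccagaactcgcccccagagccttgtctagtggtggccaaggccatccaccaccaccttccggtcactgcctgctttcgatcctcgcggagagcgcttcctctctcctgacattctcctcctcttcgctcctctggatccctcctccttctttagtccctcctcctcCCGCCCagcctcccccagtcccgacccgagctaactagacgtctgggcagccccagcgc
Erbb2: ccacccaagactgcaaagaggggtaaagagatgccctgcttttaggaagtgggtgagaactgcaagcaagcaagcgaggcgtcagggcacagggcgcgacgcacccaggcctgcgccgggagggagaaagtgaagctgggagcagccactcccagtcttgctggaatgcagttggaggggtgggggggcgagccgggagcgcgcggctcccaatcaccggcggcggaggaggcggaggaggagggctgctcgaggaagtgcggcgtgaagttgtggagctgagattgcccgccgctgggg
*Egfr* held 1 GC box (62.3% G and C) and *Erbb2* held 0 (66.0% G and C), and neither window held a match to the other motifs searched.

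Genes with the most similar pattern were sought for each tested gene as the 2 highest Pearson correlations of log2 CPM over the 13 mice, among the 11501 genes whose average log2 CPM was 1 or more. They are a description of these mice and carry no test. *Egfr* was most like *Heatr1* (r = 0.87) and *Senp3* (r = 0.87), and *Erbb2* most like *Wwc2* (r = 0.88) and *Prune1* (r = 0.85). *Erbb3* was most like *Pik3r4* (r = 0.90) and *Ogdh* (r = 0.84), and *Met* most like *Itpr1* (r = 0.94) and *Adra1a* (r = 0.92). *Adra1a*, an adrenergic receptor, and *Itpr1*, a calcium channel of the endoplasmic reticulum, differed by -0.82 and -0.44 in log2 fold change (edgeR adjusted p = 0.0730 and 0.0789), both below 0 as for *Met*. Both were picked by their correlation with *Met* over the mice of both genotypes, so the shared direction is no separate result. Of the ligands, *Hbegf* was most like *Pvr* (r = 0.95) and *Fhl3* (r = 0.94), *Tgfa* most like *Trip10* (r = 0.89) and *Strn* (r = 0.89), *Btc* most like *Arap2* (r = 0.96) and *Mllt3* (r = 0.95), and *Hgf* most like *Trim11* (r = 0.92) and *Wls* (r = 0.91).

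Of 54 further genes in 5 lists, 49 passed the expression filter, and 0 were past 5% FDR by edgeR, where 1.16% of all tested genes were. By unadjusted p under 0.05, 1 of the 49 was higher and 5 were lower, where 12.9% and 10.2% of all tested genes were. DESeq2 placed 1 of the 49 past 5% FDR (8.52% of all genes), and edgeR without WT replicate 3 placed 4 (8.49% of all genes). The median log2 fold change of the 49 was 0.06, with 28 higher and 21 lower. In 26 of the 49 genes (53.1%) WT replicate 3 was the highest WT mouse, against 28.0% of all tested genes.

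Of the other receptors and ligands of the family, 4 of 7 were tested, and 2 were higher and 2 lower in Nod2-/- mice (median log2 fold change 0.06). *Epgn*, *Nrg2* and *Nrg3* were below the filter, with at most 4 counts in a mouse. *Erbb4*, the remaining receptor of the family, had 21.3, 80.6 and 123 normalized counts at the lowest, median and highest in WT mice, and 9.97, 41.1 and 51.9 in Nod2-/- mice. All Nod2-/- mice were below the WT median, but they overlapped WT replicates 5 and 6. Its log2 fold change was -1.05 (SE 0.38, edgeR adjusted p = 0.131), the largest difference in size in the 5 lists, and DESeq2 gave -1.07 (adjusted p = 0.0547). *Nrg1*, neuregulin 1, a ligand of ERBB3 and ERBB4, had 211 normalized counts in WT replicate 3 and at most 47.5 in the other WT mice, and between 47.5 and 188 in Nod2-/- mice. With all mice its log2 fold change was 0.85 by edgeR (SE 0.77, adjusted p = 0.518) and 2.68 by voomWithQualityWeights (adjusted p = 0.0457). Without WT replicate 3 it was 2.23 by edgeR (SE 0.65, adjusted p = 0.04999), just past the threshold. Without both WT replicate 3 and Nod2-/- replicate 7 it was 2.31 and not past it (edgeR adjusted p = 0.0653). WT replicate 3 was the mouse highest in *Nrg1* itself, so neither fit is an independent test.

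Of 7 genes of ligand shedding, the step that frees membrane-bound EGF family ligands, 6 were tested and 3 were higher and 3 lower (median log2 fold change 0.06). *Rhbdf2*, which codes for an iRhom that carries the sheddase ADAM17 to the cell surface, had 126, 190 and 273 normalized counts in WT mice and 258, 273 and 551 in Nod2-/- mice. The 551 belonged to Nod2-/- replicate 7, the mouse rich in neutrophil transcripts, and the next Nod2-/- mouse had 323. The highest WT mouse was again replicate 3, and the other 5 WT mice were below every Nod2-/- mouse. Its log2 fold change was 0.70 (SE 0.20, edgeR adjusted p = 0.0773). With all mice it was past 5% FDR by DESeq2 (adjusted p = 0.0202) and by voomWithQualityWeights (adjusted p = 0.0360). It was also past it by edgeR without WT replicate 3 (log2 fold change 0.81, adjusted p = 0.0325). Without Nod2-/- replicate 7 the log2 fold change was 0.51 (edgeR adjusted p = 0.120), and without both mice 0.63 (edgeR adjusted p = 0.0285). As the highest WT mouse for *Rhbdf2* was left out, the fits without WT replicate 3 are no independent test. *Rhbdf1*, the related iRhom, had a log2 fold change of 0.53 (SE 0.31, edgeR adjusted p = 0.308).

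All 13 adaptors and effectors were tested, with 6 higher and 7 lower (median log2 fold change -0.13). The largest differences were in *Gab2*, a docking protein, and *Stat3*, a transcription factor activated downstream of both receptor systems. Their log2 fold changes were 0.35 and 0.34 (SE 0.24 and 0.17, edgeR adjusted p = 0.395 and 0.237). For *Stat3*, WT mice had 1360 to 2655 normalized counts and Nod2-/- mice 1695 to 3101, with 2 Nod2-/- mice above every WT mouse. All 14 negative regulators were tested, with 8 higher and 6 lower (median log2 fold change 0.05). *Spry4* and *Spry2*, feedback inhibitors of receptor tyrosine kinase signaling, differed in opposite directions, and neither passed the threshold. The log2 fold change of *Spry4* was -0.60 (SE 0.26, edgeR adjusted p = 0.188) and that of *Spry2* was 0.56 (SE 0.42, edgeR adjusted p = 0.431). *Sh3kbp1*, an adaptor in receptor endocytosis named after its values were seen, was past 5% FDR without WT replicate 3 (log2 fold change 1.0, edgeR adjusted p = 0.0388). Without both mice it was not (0.86, edgeR adjusted p = 0.0579). WT replicate 3 was the highest WT mouse for *Sh3kbp1*, so neither fit is an independent test.

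The last list held 13 genes around HGF activation. Of these, 8 code for proteases that can help activate HGF or a related growth factor, directly or through another protease. The rest were 3 inhibitors of such proteases and 2 relatives of HGF and MET. Of the proteases 6 were higher and 2 lower, of the 2 tested inhibitors 1 was higher and 1 lower, and both relatives were higher, none past the threshold (median log2 fold change of the 12 tested genes 0.09). *Plau*, urokinase, a protease able to activate HGF, had a log2 fold change of 0.40 (SE 0.26, edgeR adjusted p = 0.376). *Mst1r*, the MET relative that binds macrophage stimulating protein, had 70.5 normalized counts in WT replicate 3 and at most 10.6 in the other WT mice, while Nod2-/- mice had 5.69 to 42.9. Its log2 fold change was 0.36 (SE 0.71, edgeR adjusted p = 0.796) with all mice, and 1.91 (SE 0.53, adjusted p = 0.0432) without WT replicate 3. That mouse was the highest in *Mst1r* itself, so the value without it is no independent test. Without both that mouse and Nod2-/- replicate 7, *Mst1r* was below the expression filter and not tested.

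**Figure D4:**
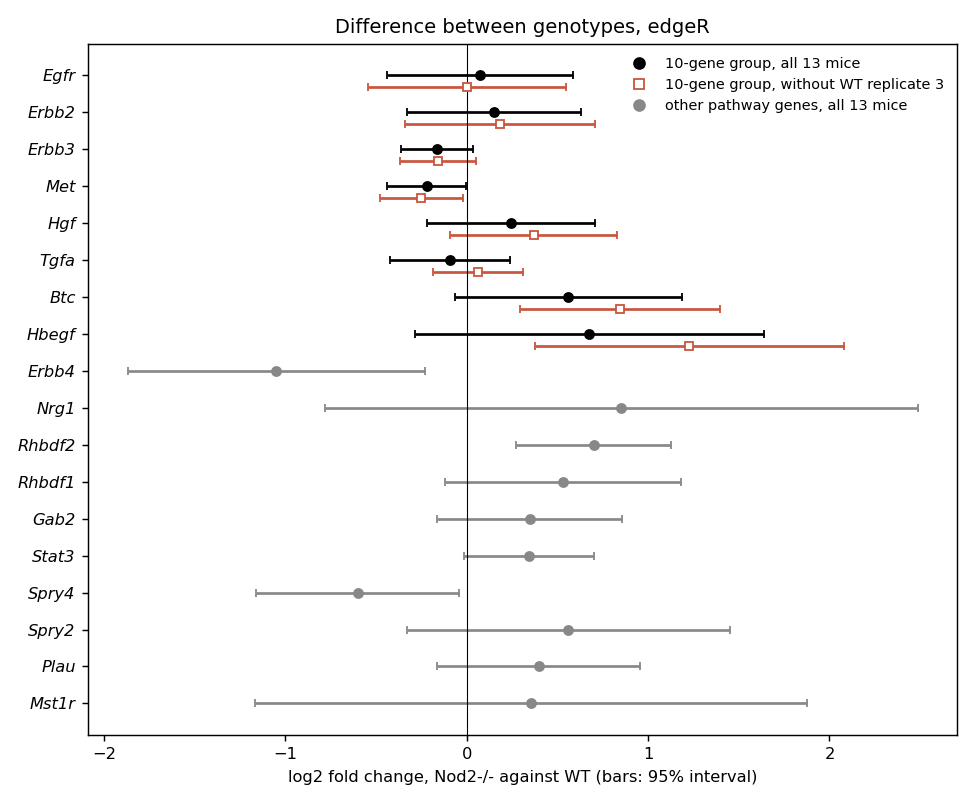
Log2 fold change of Nod2-/- against WT mice with its 95% interval from edgeR for the 8 tested genes with all 13 mice (black) and without WT replicate 3 (open red squares), and for 10 other pathway genes with all mice (grey). With all mice the interval of *Met* alone among the 8 leaves out 0, and without WT replicate 3 those of *Met*, *Btc* and *Hbegf* do. WT replicate 3 stood apart in *Btc* and *Hbegf* themselves, so their intervals without it are no independent test.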

How the data were processed

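Liver RNA of 13 mice was sequenced from polyadenylated, stranded libraries. Per the labels and the study's methods, the authors used Trimmomatic 0.33 for trimming and TopHat2 2.1.1 for mapping to GRCm38, and deposited raw counts per gene and mouse, without normalization. The counting program, its strand setting and its treatment of reads that map to several places are not given in the sources used here. The table has 53465 genes, and 1 row that names no gene was dropped. Symbols, positions and exon lengths came from GENCODE M21 (53274 genes found).

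Genes kept by filterByExpr (13545, 99.9% of counts) were fitted with edgeR 4.0.16 in R 4.3.3 (TMM, glmQLFit, glmQLFTest, two-sided) and adjusted by Benjamini and Hochberg's method. Standard errors are the size of the log2 fold change over the root of F. Counts divided by the effective library size and multiplied by its mean are called normalized counts, and log2 CPM used a prior count of 0.5. Exact permutation tests enumerated 1716 splits and could give no p below 0.000583, and correlations used 100000 permutations. Detection floors (3 counts) cover counting error only. Libraries of the same genotype never matched within sampling noise (36 pairs, chi-square per degree of freedom at least 11.4). DESeq2 1.42.0, limma 3.58.1 (voomWithQualityWeights), other filters, RLE scaling, a replicate block and left-out mice were alternatives. All 3 models were first tested on simulated data.

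The genes and lists were chosen with earlier results of these data known. Named beside the 10 genes are, in each pathway list, those past 5% FDR and the 2 with the largest change, the 2 genes most alike in pattern to each tested gene, and *Nod2*. Protein sequences were not analysed here.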

Additional observations from a re-analysis of the deposited data

Results flagged for a closer look

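In 20 groups, 1 for each of the 10 genes and 2 genotypes, the highest and lowest mice were compared with the rest by Dixon's ratio, the gap to the nearest mouse over the whole range. WT replicate 3 stood apart at the top of the WT mice in 3 of them. Its *Tgfa* was 712 normalized counts, against 359 to 445 in the other WT mice (ratio 0.757). Its *Btc* was 91.3 normalized counts, against 29.6 to 44.2 (ratio 0.763). Its *Hbegf* was 40.7 normalized counts, against 6.63 to 18.8 (ratio 0.642, with 0.625 as the critical value for 6 mice). Chance flags about 1 in 20 groups, counting any mouse at either end, so this rate is too high for 1 named mouse at the top. WT replicate 3 stood apart at the top in 4.90% of all tested genes, which is an observed share and not a chance rate.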

How the results depend on the processing

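In all 20 alternative settings, 0 of those among the 10 genes that were tested were past 5% FDR in either direction. Over all genes the calls moved widely, from 88 higher and 69 lower to 630 and 582 by DESeq2, 519 and 324 by voomWithQualityWeights, 408 and 159 without both WT replicate 3 and Nod2-/- replicate 7, and 20 to 697 higher and 20 to 459 lower with 1 mouse left out. The highest values of that range, 697 and 459, came without WT replicate 3. Of the 54 other pathway genes, 1 was past 5% FDR by DESeq2, 2 by voomWithQualityWeights, 0 to 4 with 1 mouse left out, the 4 without WT replicate 3, and 1 without both mice. With 1 mouse left out, the log2 fold change of *Egfr* ranged from -0.068 (without WT replicate 1) to 0.26 and that of *Tgfa* from -0.16 to 0.063 (without WT replicate 3). *Tgfa* was also above 0 by voomWithQualityWeights (0.052) and without both mice (0.14). The difference in *Ereg*, 0.286 normalized counts, ranged from -0.338 to 1.11 with 1 mouse left out, and was below 0 when WT replicate 1 (-0.338), WT replicate 5 (-0.117), Nod2-/- replicate 1 (-0.204) or Nod2-/- replicate 5 (-0.172) was absent. *Areg* gave an exact permutation p of 0.132 with all mice and 0.0240 without WT replicate 3, on at most 3 counts per mouse. The correlation of *Egfr* with *Erbb2* was 0.60 by rank. The causes were not tested.

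The replicate numbers in the titles did not pair the mice: same-numbered mice deviated from their group means with correlations of -0.29 to 0.28, and 0 of 6 WT mice correlated best with their own number. With the replicate block, 17 genes were higher and 18 lower, none of the 10 genes was called, and the log2 fold change of *Met* was -0.19 (edgeR adjusted p = 0.367). *Hbegf*, *Erbb2*, *Areg* and *Ereg* had at most 50 counts in a mouse, which limits what could be seen in them.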
